A study of Mus musculus with 6 samples.

Results

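The data described here are the open chromatin peaks around 10 genes of the Hippo pathway, Yap1, Wwtr1, Tead1, Tead2, Tead3, Tead4, Lats1, Lats2, Amotl2 and Vgll4. A peak was taken as belonging to a gene when its summit lay in the gene body or within 100 kb of it (GRCm38, GENCODE mouse annotation). This gave 277 of the 99359 regions found in the series, and they were thus chosen by the presence and position of their peaks. Numbers of peaks and presence per list are described without a test. Chromatin was profiled by ATAC-seq, in which the Tn5 transposase cuts accessible DNA, in hand-dissected S1 proximal tubules, the segment that follows the glomerulus, with 3 tubules in each library. All mice were wild-type (WT) C57BL/6 males from Taconic aged 7 weeks, and tubules were dissected at 24 h. One group of 3 libraries followed a sham operation (Sham) and the other, also of 3, the excision of 1 kidney by unilateral nephrectomy (UNx). The comparison asks how accessibility at these genes differed between the operations. No label states that the libraries are from separate mice, so the p-values measure the spread between these libraries, which may be partly technical.

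The Hippo pathway is a kinase cascade that restrains growth. The LATS kinases phosphorylate the coactivators YAP (Yap1) and TAZ (Wwtr1), which are then held in the cytoplasm or degraded, and unphosphorylated YAP and TAZ enter the nucleus and act through the DNA-binding TEAD proteins. Angiomotins retain YAP at cell junctions and VGLL4 competes with it for TEAD. In the kidney the pathway is studied in development, tubule repair and fibrosis.

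Sequences are shown first, in 3 sets, for the features that the values below return to. The 6-letter string GGAATG or its reverse complement CATTCC, the core of the TEAD recognition sequence, was searched on both strands within 100 bases of the strongest summit of each region. It lay in 6 of the 10 tested regions at a start of a member gene, with 9 occurrences, and in 7.03% of all 14008 tested promoter regions. These stretches are from GRCm38 and are written 5′ to 3′ on the strand of the gene, with the string in capitals. Yap1 and Wwtr1 are shown as the part of the promoter window upstream of the gene (chr9:8004597-8004747 and chr3:57575911-57576048, minus strand), and the others as 30 bases around 1 occurrence each, of which those of Tead1, Tead4 and Lats2 lie in the 5′ UTR and that of Amotl2 in an intron of a longer isoform. The coordinates of these 4 are chr7:112679331-112679360 (plus strand), chr6:128300454-128300483 (minus), chr14:57746102-57746131 (minus) and chr9:102717521-102717550 (plus). The Tead1 and Tead4 stretches hold further copies of the string, left in lower case.
Yap1 promoter: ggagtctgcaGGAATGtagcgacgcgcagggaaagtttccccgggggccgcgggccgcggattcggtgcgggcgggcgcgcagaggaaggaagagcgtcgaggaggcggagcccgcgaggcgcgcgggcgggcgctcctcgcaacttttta
Wwtr1 promoter: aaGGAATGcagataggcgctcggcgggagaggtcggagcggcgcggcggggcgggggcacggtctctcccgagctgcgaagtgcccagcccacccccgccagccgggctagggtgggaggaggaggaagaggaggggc
Tead1 first start: tggcgttcatttCATTCCtgtcctcattcc
Tead4 promoter: cattccagcgccCATTCCgtgcattcctgc
Lats2 promoter: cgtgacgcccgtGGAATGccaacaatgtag
Amotl2 promoter: gcagggtggcagGGAATGaatgccgcacgg

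The second set is the 3 regions whose difference between operations passed the test. All 3 lay upstream of Tead1 and none held the TEAD string. They are shown on the plus strand of GRCm38 as the window of 100 bases on either side of the strongest summit, at chr7:112583168-112583368, chr7:112600283-112600483 and chr7:112614141-112614341. Positions are given from the nearest annotated start of the gene, negative upstream.
Tead1 at −96050 bp: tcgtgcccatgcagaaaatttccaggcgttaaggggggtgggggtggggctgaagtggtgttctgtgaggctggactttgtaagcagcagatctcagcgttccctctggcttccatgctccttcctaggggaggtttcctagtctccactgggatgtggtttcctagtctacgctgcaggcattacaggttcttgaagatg
Tead1 at −78935 bp: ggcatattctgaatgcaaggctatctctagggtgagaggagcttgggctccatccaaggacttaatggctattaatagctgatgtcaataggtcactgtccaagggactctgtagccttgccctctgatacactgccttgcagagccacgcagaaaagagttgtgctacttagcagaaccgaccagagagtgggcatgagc
Tead1 at −65077 bp: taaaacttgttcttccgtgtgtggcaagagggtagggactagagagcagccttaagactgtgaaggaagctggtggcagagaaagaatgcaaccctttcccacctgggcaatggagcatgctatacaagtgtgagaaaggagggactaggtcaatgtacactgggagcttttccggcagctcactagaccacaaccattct

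The last set is a region next to Amotl2, shown because it was present in all 3 UNx lists and absent from all deposited Sham peaks. It was chosen after its values were seen. It holds the TEAD string and the AP-1 string TGANTCA, the recognition sequence of FOS and JUN factors, both in capitals (chr9:102715679-102715879, plus strand of GRCm38). A match to a string is a description of the letters and does not show that a factor was bound.
Amotl2 at −1023 bp: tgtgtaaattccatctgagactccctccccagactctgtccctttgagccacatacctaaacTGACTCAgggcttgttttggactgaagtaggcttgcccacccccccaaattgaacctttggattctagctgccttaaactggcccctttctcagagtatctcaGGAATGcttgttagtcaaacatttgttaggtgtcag

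Values are percentile ranks. In every library the 77355 peaks with the highest −log10 q of the authors were kept, which is the length of the shortest list, and a region scored near 100 where it was among the strongest of that list and 0 where it was not among them. The deposited lists held 77355 to 100999 peaks, with a median −log10 q from 12.1 (Sham 2) to 26.5 (UNx 3), and their sequencing depth is unknown. A region was tested where at least 3 of the 6 lists held it, 210 of the 277 at the 10 genes and 74781 in the series. A region absent from all lists of one operation passed this filter through the other operation alone, so that it had to differ, and its ranks are given without a test. All 7 markers of the S1 segment had a promoter peak in all 6 libraries, with summed ranks of 598 to 603 in Sham and 580 to 601 in UNx. Markers of distal tubule, collecting duct and leukocytes were at 0 in all libraries. Markers of endothelium were not: their summed rank over 5 genes was 23.5 to 39.8 in Sham and 0 to 4.39 in UNx, groups that did not overlap. None of the 5 was present in all lists, and Pecam1, Kdr, Flt1 and Emcn were at 0 in every UNx library. The summed rank of the 2 loop of Henle markers also did not overlap (119 to 125 in Sham and 84.4 to 107 in UNx). The 2 genes went opposite ways: Slc12a1 differed by −26.7 percentile points (UNx minus Sham) and Umod by 3.91. The summed rank of the 3 S3 segment markers was apart too (59.4 to 79.3 in Sham and 40.9 to 58.6 in UNx). It rested on Slc22a7, since Slc7a13 was at 0 throughout and Slc5a1 was in 1 list (11.5, Sham 1). Podocyte (63.6 to 97.4 in Sham, 56.9 to 82.4 in UNx), fibroblast and smooth muscle (76.2 to 93.8 and 54.4 to 114) and parietal or injured tubule markers (177 to 207 and 166 to 199) overlapped between operations. The part of these other cells in the results below was not tested, and fewer cells of a type cannot be told apart from less accessible chromatin in each cell.

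Of the 277 regions, 13 lay within 1 kb of a start of a member gene by their summit (own promoter), 38 within 1 kb of the start of another protein-coding gene and 226 were distal to any such start. Introns held 175 of the summits and 74 were intergenic, while 15 were in 5′ UTRs, 6 in coding exons, 2 in 3′ UTRs and 5 in noncoding exons. Peaks were present in all 6 lists at 152 regions (54.9%, against 53.4% in the series) and in a single list at 47 (16.97%, against 16.3%). The density of regions differed among the genes, from 5.87 per 100 kb of window at Yap1 to 14.9 at Vgll4. The regions on either side of the 100 kb limit differed from gene to gene. At Tead1 the last region inside it had a mean rank of 88.4 (99173 bp from the gene, nearest to Rassf10) and the first outside 68.4 (103478 bp, on the other side, nearest to Parva). At Yap1 these mean ranks were 95.9 inside and 0.0239 outside, at Tead4 17.5 and 83.6, and at Amotl2 6.12 and 72.5.

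At the 10 genes 3 regions passed the test (limma adjusted p under 0.05), all higher in UNx and all at Tead1. They were 1.43% of the 210 tested, where 0.788% of all tested regions passed in either direction (0.435% higher and 0.353% lower). All 3 were distal, of 166 distal regions tested, and 0.489% of all distal regions passed as higher. An unadjusted limma p under 0.05 was found at 51 of the 210 (24.3%), against 18.6% of all tested regions. Both shares include regions that passed the filter through a single operation and had to differ. The groups did not overlap at 39 member regions that were higher in UNx and at 29 that were lower, against 23.7% of all regions in either direction (12.0% higher and 11.7% lower). Of these regions 9 of the higher and 1 of the lower were absent from every list of the other operation and had to be apart. Such regions numbered 1036 and 928 in the series. The median difference over the 210 regions was 1.56 percentile points, and over all tested regions −0.0112. Over all 277 regions, with no filter on presence, the median was 1.03, and among the 210 it was 0.571 without UNx 3 and 0.804 without Sham 2. Without Tead1 the median of the other 172 was 0.316, with 22 apart and higher and 29 apart and lower.

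**Figure D1:**
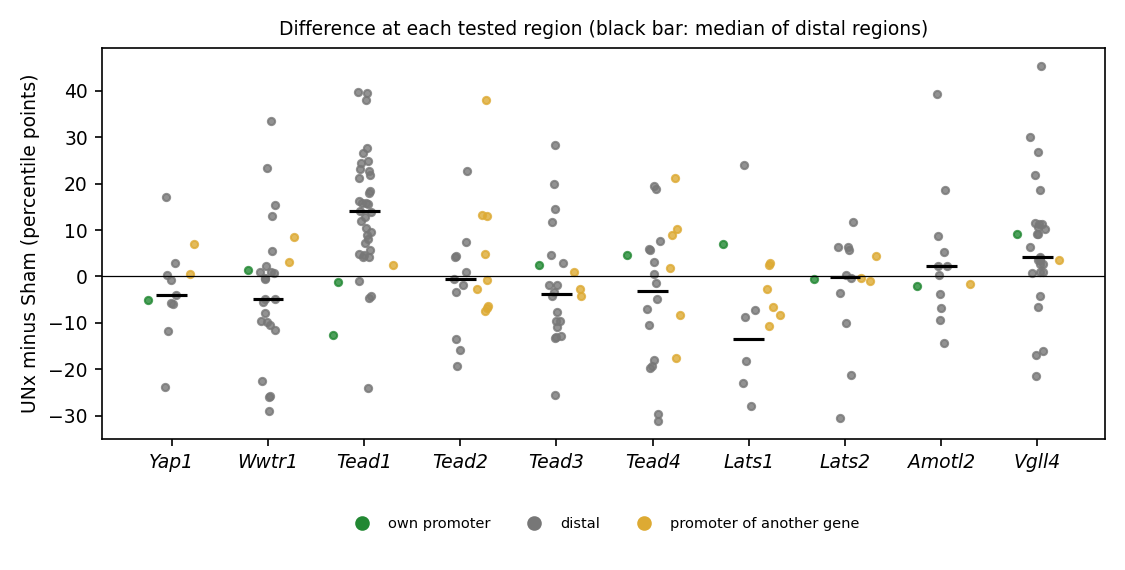
Difference in percentile rank (UNx minus Sham, percentile points) at each tested region of the 10 genes, with own promoters in green, promoters of other genes in yellow and distal regions in grey; the black bar is the median of the distal regions. Tead1 has 31 of 35 distal regions above 0 and a median of 14.2, while the Lats1 median is −13.5 over 6 regions.

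YAP and TAZ, the coactivators at the end of the cascade, had accessible promoters in every library. At the Yap1 promoter (chr9:8003312-8005180) the percentile ranks were 75.4, 80.1 and 75.6 in Sham 1 to 3 and 69.9, 71.1 and 75.3 in UNx 1 to 3. All 3 UNx values lay below the Sham values, but by less than the test requires: the difference was −4.98 percentile points (95% interval −14.5 to 4.49, limma adjusted p = 0.590). With fixed windows around summits as regions the difference was −30.1 points, without passing. In UNx 3 the strongest summit of this peak lay 1055 bp from the start, past the 1 kb limit, and its interval overlapped the promoter region. With fixed windows UNx 3 thus had no window in the promoter region, and the −30.1 points include that absence. The Wwtr1 promoter (chr3:57574751-57576820) ranked higher, at 95.2, 95.2 and 95.4 in Sham and 96.4, 95.1 and 98.2 in UNx. Its groups overlapped, with a difference of 1.34 points (95% interval −1.78 to 4.45, limma adjusted p = 0.672). The protein-coding genes whose promoter ranks were nearest to those of Yap1 over the 6 libraries were Ddah2, Tbl3 and Parl, at Euclidean distances of 3.07, 4.17 and 4.89 percentile points. For Wwtr1 they were Camkmt and Prepl, which share 1 region, at 1.56, and Triobp at 1.74.

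**Figure D2:**
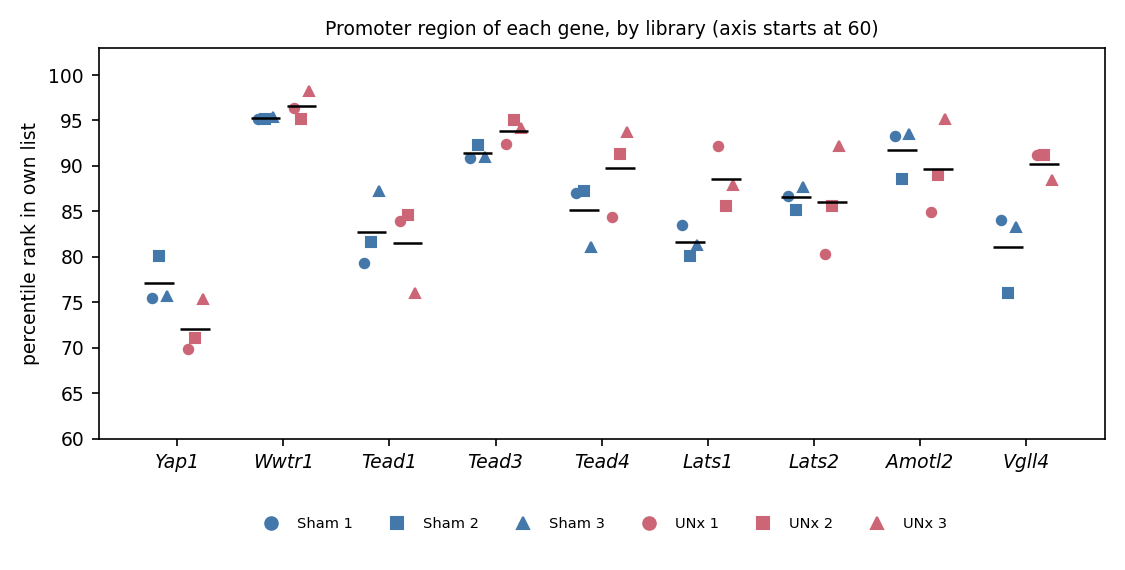
Percentile rank in each library of the strongest promoter region of 9 genes (vertical axis from 60), with Sham in blue, UNx in red, a symbol per replicate number and a bar at the mean of 3. Tead1 is drawn at its internal start and Tead2 had no promoter region; the 3 UNx points lie above the 3 Sham points at Tead3, Lats1 and Vgll4 and below them at Yap1.

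Within the Yap1 gene the strongest distal region, in an intron 36398 bp from the start, ranked 70.7, 85.8 and 81.7 in Sham and 79.8, 73.5 and 82.4 in UNx, with overlapping groups. The intronic region of smallest p, at 41463 bp, ranked 0, 8.80 and 20.0 in Sham and 36.7, 6.32 and 36.9 in UNx (difference 17.1 points, SE 11.1, limma adjusted p = 0.430). UNx 2 lay among the Sham values there. No tested region of Yap1 passed, and 6 of its 9 distal regions were below 0. At Wwtr1 the strongest distal region, intronic at 8957 bp, ranked 80.0, 77.7 and 83.4 in Sham and 86.9, 80.6 and 90.0 in UNx. A second intronic region at 35894 bp ranked 38.1, 25.3 and 25.9 in Sham and 0, 2.34 and 0 in UNx, so the groups were apart, by −29.0 points (SE 9.29, limma adjusted p = 0.117). Another at 103216 bp, nearest to the start of Tm4sf4, was at 0 in all 3 Sham lists and at 20.8, 22.1 and 57.3 in UNx, but 2 Sham libraries had a weaker peak there among all deposited peaks. Of the 23 tested distal regions of Wwtr1, 14 were below 0 and none passed.

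The TEAD proteins carry the DNA-binding domain through which YAP and TAZ act on genes, and the 4 genes differed in what surrounded them. Tead1 is the longest of the 10 genes (227490 bp, plus strand) and its distal regions were higher in UNx as a group of neighbours. Of 35 tested distal regions 31 had a difference above 0 and 17 had all UNx values above all Sham values, against 12.2% of all distal regions, while none had them all below (12.2% of all distal regions). The 31 and the 17 include the regions at 12320, 93150 and 178206 bp, which passed the filter through UNx alone and had to differ. The shares over all distal regions include such regions as well. Over all 44 distal regions, with no filter on presence, 36 were above 0. The median difference was 14.2 percentile points, and over all tested distal regions it was −0.0254 with 49.9% above 0. Neighbouring regions are not independent of each other, and the gene was singled out after its values were seen. The summed rank of endothelial markers moved the other way (23.5 to 39.8 in Sham, 0 to 4.39 in UNx), and its part in the result was not tested. Leaving Tead1 out, 65 of the 131 distal regions of the other 9 genes were above 0. Of these 131, 12 were apart and higher (9.16%) and 23 apart and lower (17.6%), against 12.2% of all distal regions each. These counts include regions that passed the filter through a single operation.

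The 3 regions that passed stood upstream of the first Tead1 start. The region at −96050 bp (chr7:112582511-112583795) lies in an intron of Parva, a gene of focal adhesions whose start is nearer to it than that of Tead1. Its ranks were 50.9, 57.5 and 67.6 in Sham and 85.8, 84.7 and 79.9 in UNx, a difference of 24.8 points (SE 5.44, limma adjusted p = 0.0423). The authors' −log10 q of this peak was 26.7, 15.2 and 45.0 in Sham and 66.3, 98.5 and 121.1 in UNx. These values depend on the unknown depth of each library. The fold enrichment was 8.83, 7.68 and 12.9 in Sham and 14.3, 11.8 and 14.3 in UNx, where UNx 2 lay below Sham 3. It held the HNF4 string CAAAGTC, found in 8.97% of all distal regions on either strand.

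The intergenic region at −78935 bp (chr7:112600132-112600789) ranked 75.1, 63.2 and 59.0 in Sham and 91.0, 88.0 and 86.6 in UNx. It differed by 22.8 points (SE 4.65, limma adjusted p = 0.0365). The region at −65077 bp (chr7:112613793-112614694), in an intron of 2310014F06Rik, ranked 51.8, 56.6 and 60.9 in Sham and 82.0, 89.1 and 81.2 in UNx, which gave the largest difference of the 3, 27.7 points (SE 5.26, limma adjusted p = 0.0302). At all 3 regions every UNx library lay above every Sham library by rank of −log10 q, and all 6 libraries had a peak. By fold enrichment the groups overlapped at −96050 bp and at −78935 bp. At −78935 bp it was 11.8, 7.27 and 9.43 in Sham and 12.6, 10.8 and 12.1 in UNx. The calls did not hold under several other ways of ranking or fitting: with ranks corrected for GC content the limma adjusted p of the 3 was 0.0847, 0.0789 and 0.0778 in order from the farthest, and over all alternatives it ran from 0.0179 to 0.342, 0.0117 to 0.499 and 0.00929 to 0.150. Leaving out Sham 1 kept 1 of the 3 calls and leaving out any other library kept none; the differences stayed above 0 in every alternative.

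The 2 other tested distal regions upstream of Tead1, named after their values were seen, had the same order of groups without passing. The one at −83892 bp ranked 30.6, 1.83 and 22.5 in Sham and 31.2, 53.0 and 40.4 in UNx (limma adjusted p = 0.278), and the one at −75444 bp ranked 0, 5.66 and 0 in Sham and 45.3, 34.2 and 44.4 in UNx (limma adjusted p = 0.0714). Within the Tead1 gene 23 of 24 distal regions were above 0 and 11 had groups apart. Beyond its end 3 of 6 were above 0 and 1 had groups apart. The regions at 12320 and 93150 bp in the gene, and the one apart beyond its end, at 178206 bp, passed the filter through UNx alone. The largest difference in the gene was at 20819 bp, in an intron, with 17.2, 9.63 and 23.5 in Sham and 58.3, 58.5 and 52.6 in UNx (39.7 points, SE 9.67, limma adjusted p = 0.0571). The only one below 0, at 69079 bp, ranked 45.3, 67.3 and 55.9 in Sham and 16.9, 22.4 and 57.2 in UNx, where UNx 3 lay among the Sham values.

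**Figure D3:**
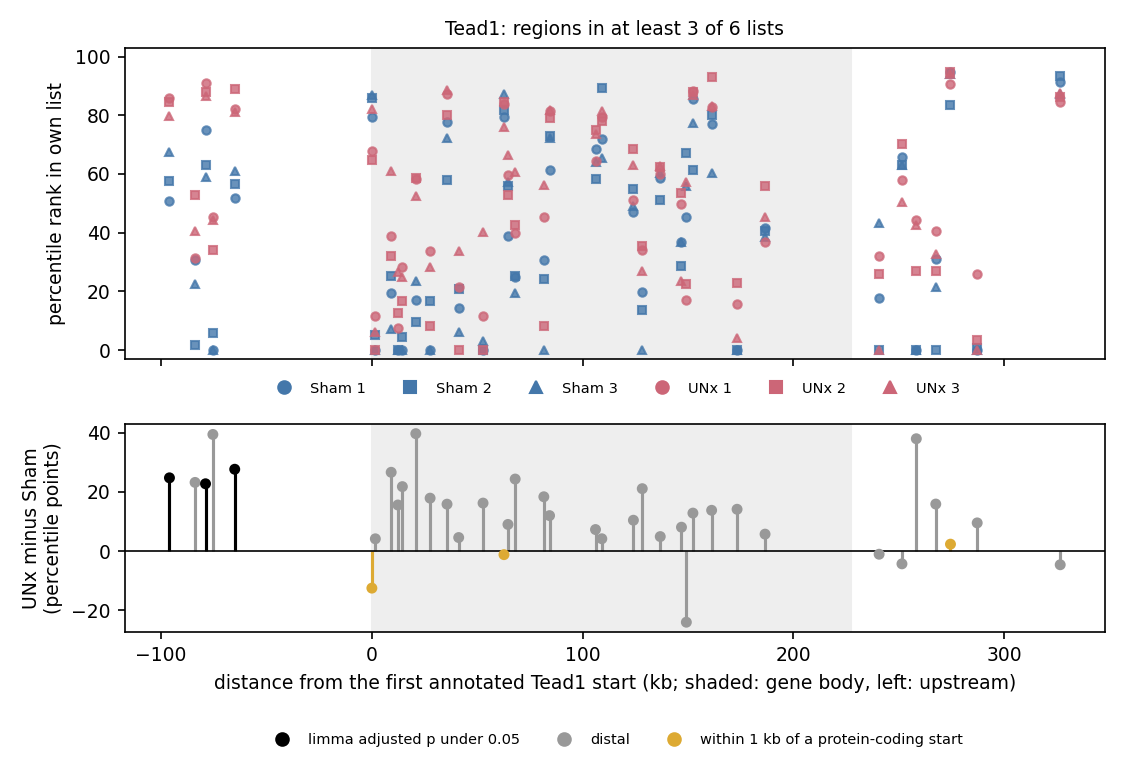
Tested regions of Tead1 by distance from its first annotated start (kb, gene body shaded): percentile rank in each library above and the difference in percentile points (UNx minus Sham) below, with the 3 regions past the test in black. The 5 upstream distal regions are all above 0, the region at the first start is at −12.5 and 1 distal region of the gene body is below 0.

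The 2 tested regions at Tead1 starts of the basic annotation had differences below 0, unlike most of its distal regions, and neither passed. The region over the first start (chr7:112678482-112680280, 5′ UTR) ranked 79.4, 85.8 and 86.9 in Sham and 67.9, 64.7 and 82.0 in UNx, so that UNx 3 overlapped the Sham values, and it differed by −12.5 points (SE 4.78, limma adjusted p = 0.172). The region at an internal start (chr7:112741761-112742317) ranked 79.3, 81.7 and 87.2 in Sham and 84.0, 84.6 and 76.0 in UNx, a difference of −1.18 points (95% interval −8.76 to 6.40, limma adjusted p = 0.898). Beyond these, 3 Tead1 regions were in all 3 UNx lists and no Sham list: 1 at 12320 bp with 7.44, 12.6 and 26.7 in UNx, 1 at 93150 bp with 15.8, 22.7 and 4.01, and 1 beyond the gene at 178206 bp with 44.3, 27.04 and 42.6. The first lies −21 bp from a start that the full annotation lists and the basic annotation, used here, leaves out. Among all deposited peaks, 2, 0 and 1 Sham libraries had a peak at these 3 regions. The strongest distal region of the gene, at 72196 bp, ranked 85.6, 61.5 and 77.2 in Sham and 88.2, 87.9 and 86.8 in UNx (12.9 points, SE 4.72, limma adjusted p = 0.158).

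Tead2 showed no promoter peak in any of the 6 equal-length lists. Among all deposited peaks UNx 1 had 1, with a −log10 q of 1.97 and a fold enrichment of 3.01, and in the other libraries the nearest summit was 11118 to 11160 bp from a Tead2 start. The regions counted at Tead2 therefore belonged to its surroundings, 10 of 22 of them at starts of other genes. One at the start of Slc6a16 was at 0 in Sham and at 9.54, 20.6 and 9.12 in UNx, with a deposited peak in 2 Sham libraries. The Tead3 promoter (chr17:28349905-28351478) ranked 90.9, 92.3 and 91.0 in Sham and 92.4, 95.1 and 94.2 in UNx. Its groups were apart by a small step of 2.48 points (95% interval −1.28 to 6.23, limma adjusted p = 0.482). An intronic region of Tead3 at 9058 bp was stronger than that promoter in Sham, at 93.3, 94.1 and 95.6, and ranked 91.3, 93.4 and 92.7 in UNx.

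The Tead4 promoter (chr6:128300032-128301161), with 3 copies of the TEAD string, ranked 87.0, 87.3 and 81.0 in Sham and 84.4, 91.3 and 93.8 in UNx (4.72 points, 95% interval −1.28 to 10.7, limma adjusted p = 0.391). The distal regions named at Tead4 had differences of both signs. At 41189 bp the ranks were 42.9, 39.2 and 44.8 in Sham and 0, 20.6 and 17.4 in UNx, groups apart by −29.6 points (SE 10.7, limma adjusted p = 0.152). At 4489 bp they were 20.6, 4.01 and 32.9 in Sham and 0 in every UNx library, also among all deposited peaks. This was the only region of the 10 genes in all 3 Sham lists and no UNx list, and its window holds the TEAD string. The region at −17735 bp ranked 46.6, 51.7 and 61.2 in Sham and 42.3, 40.6 and 45.4 in UNx (limma adjusted p = 0.528). One at −53991 bp, in an intron of Tulp3, was at 0 in Sham and at 15.8, 1.48 and 41.2 in UNx. Of the 16 tested distal regions of Tead4, 3 were apart and higher and 6 apart and lower (12.2% of all distal regions each). The regions at −53991 and 4489 bp are among these counts and passed the filter through a single operation.

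The LATS kinases inactivate YAP and TAZ. The Lats1 promoter (chr10:7680554-7682018) ranked 83.5, 80.1 and 81.3 in Sham and 92.2, 85.6 and 87.9 in UNx. Every UNx value was above every Sham value, with a difference of 6.95 points (SE 2.88, limma adjusted p = 0.205). The 6 tested distal regions near Lats1 had a median difference of −13.5, with 5 below 0 and 3 apart and lower (12.2% of all distal regions), and none passed. All of them were nearer to the start of another gene. The Lats2 promoter (chr14:57745288-57746726) ranked 86.7, 85.2 and 87.7 in Sham and 80.3, 85.6 and 92.2 in UNx, where UNx spanned the Sham values (−0.501 points, 95% interval −6.83 to 5.82, limma adjusted p = 0.952). The strongest distal region of Lats2, in an intron at 4233 bp (chr14:57729745-57731006), was apart in the groups: 90.7, 87.6 and 90.2 in Sham and 95.0, 95.5 and 95.1 in UNx. The difference was 5.67 points (SE 1.82, limma adjusted p = 0.118).

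Amotl2 encodes an angiomotin that binds YAP at junctions, and it is itself a known target of YAP and TEAD. Its promoter (chr9:102716986-102718676) ranked 93.3, 88.6 and 93.5 in Sham and 85.0, 88.9 and 95.2 in UNx, with overlapping groups (−2.07 points, 95% interval −7.33 to 3.19, limma adjusted p = 0.701). The neighbouring region at −1023 bp (chr9:102715505-102716012), whose sequence is shown above, was at 0 in all 3 Sham libraries and at 27.3, 26.0 and 64.3 in UNx. Also among all deposited peaks 0 of 3 Sham lists had a peak there. It lies just past the 1 kb limit that defines a promoter here, and −893 bp from a start that the basic annotation leaves out. The strongest distal region, in an intron at 6491 bp, ranked 95.2, 90.9 and 75.8 in Sham and 92.3, 93.3 and 92.4 in UNx.

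VGLL4 competes with YAP for TEAD. The Vgll4 promoter (chr6:114921690-114922243) ranked 84.1, 76.0 and 83.3 in Sham and 91.2, 91.2 and 88.4 in UNx. Every UNx value was above every Sham value, by 9.13 points on average (SE 2.90, limma adjusted p = 0.115). Longer transcripts of the full annotation begin upstream, and the region 175 bp from 1 of their starts, classed as distal here, ranked 85.8, 88.6 and 83.2 in Sham and 89.5, 85.8 and 92.7 in UNx (limma adjusted p = 0.502). Of the 27 tested distal regions of Vgll4, 22 were above 0 and 5 below, with a median of 4.14 points. Of these 27, 3 were apart and higher and 2 apart and lower. In the gene body including the longer transcripts 17 of 18 distal regions were above 0, with a median of 9.84 points. That median was 3.28 without UNx 3 and 3.43 with ranks by fold enrichment. The groups were apart at 2 of the 18, against 12.2% of all distal regions in each direction, and no region passed. Both were absent from all Sham lists, passed the filter through UNx alone and had to be apart. The larger of these was intronic at 52946 bp (chr6:114868700-114869369), at 0 in all Sham libraries and at 56.7, 26.5 and 53.1 in UNx (45.4 points on average). Sham had a deposited peak there in 1 library. The smaller, at −19857 bp, was also in all 3 UNx lists and no Sham list, with 13.5, 20.4 and 0.0465. The strongest distal region, intronic at 32668 bp with a TEAD string, ranked 93.5, 93.8 and 95.5 in Sham and 93.3, 95.8 and 96.8 in UNx.

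**Figure D4:**
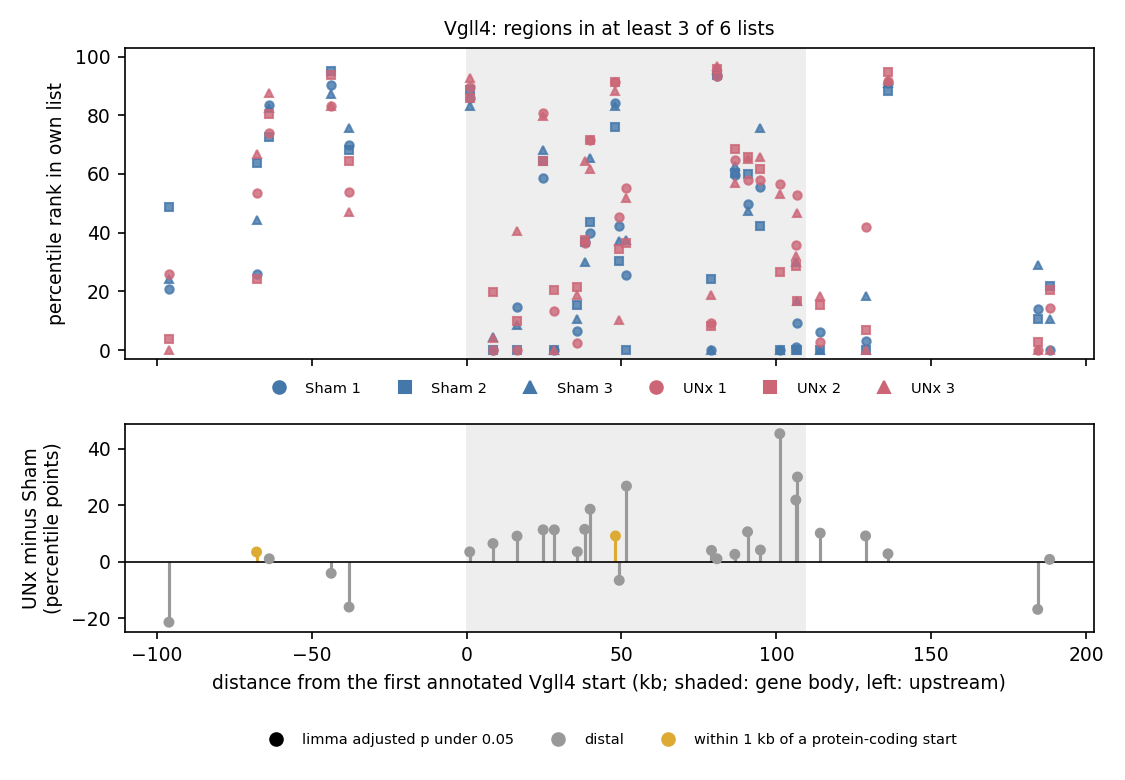
Tested regions of Vgll4 by distance from the first start in the full annotation (kb, gene body shaded): percentile rank in each library above and the difference in percentile points (UNx minus Sham) below. No region passed the test. Of all 27 distal regions 22 are above 0, and of the 18 in the gene body 17 are. The tallest of the gene body, at 45.4, was at 0 in all 3 Sham libraries.

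Over the 9 genes with a promoter region, the groups were apart and higher in UNx at 3 (Tead3, Lats1 and Vgll4) and apart and lower at 1 (Yap1). Of all protein-coding genes with a tested promoter region, 9.26% were apart and higher and 10.6% apart and lower, and 0.394% passed the test. Among the 277 regions, 10 were in all 3 lists of one operation and none of the other, 9 in UNx and 1 in Sham. They made up 3.61%, against 1.98% of all regions. The UNx ones were 3.25% (1.04% of all regions) and the Sham one 0.361% (0.934%). Presence per list is part of how the regions were chosen, and 4 of these 10 were also absent from every deposited list of the other operation: those at Amotl2, at Tead1 (93150 bp) and at Tead4 (4489 bp and −53991 bp).

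The number of peaks at the 10 genes was 207, 215 and 215 in Sham and 230, 232 and 215 in UNx. The mean was 212 ± 4.62 (SD, n = 3) in Sham and 226 ± 9.29 (SD, n = 3) in UNx, 13.3 more in UNx, and UNx 3 lay at the level of Sham 2 and Sham 3. Distal peaks alone numbered 158, 164 and 167 in Sham and 182, 180 and 171 in UNx, groups that did not overlap. The number of distal peaks in each whole list is not given here, so this count has no background. Without Tead1 all peaks numbered 171, 173 and 184 in Sham and 183, 188 and 176 in UNx, and the groups overlapped. Presence chose the regions, so no test is given. Own promoter peaks numbered 13, 14 and 12 in Sham and 13, 14 and 10 in UNx. The largest differences were at Tead1 and Vgll4: Vgll4 had 27, 24 and 30 peaks in Sham and 33, 37 and 31 in UNx, and Tead1 had 36, 42 and 31 in Sham and 47, 44 and 39 in UNx.

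At the distal regions of the 10 genes the TEAD string lay in 18 of 166 (10.8%), against 13.7% of all tested distal regions, and in 6 of the 35 at Tead1. The AP-1 string TGANTCA lay in 14 of the 166 (8.43%, against 8.19%). The HNF1 string GTTAAT lay in 23 (13.9%, against 14.02%) and the HNF4 string in 18 (10.8%, against 8.97%), both recognised by factors of the proximal tubule. Over the whole series the median difference of the 8339 distal regions holding a TEAD string was 1.14 percentile points. That of all distal regions was −0.0254. Limma called 55 of the 8339 higher (0.660%, against 0.489% of all distal regions) and 27 lower (0.324%, against 0.382%). A shift was not particular to the TEAD string. Over the 5452 distal regions with the HNF4 string the median was 2.86, and limma called 41 of the 5452 higher and 15 lower. The median was 1.21 with the SP and KLF string GGGCGG and 0.578 with the AP-1 string. It was −0.954 with the HNF1 string and −3.73 with the CTCF string AGGGGGC.

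Other genes of the pathway were followed at their promoters in a list of 57, of which 52 had a promoter region and 49 were tested. None passed the test in either direction with limma, 7 had an unadjusted p under 0.05, 24 were above 0, and the groups were apart and higher at 5 and apart and lower at 3. Over the promoter regions of all protein-coding genes 13.2% had such a p, 47.1% were above 0, 9.26% were apart and higher and 10.6% apart and lower. Among 11 core kinases and adaptors 5 were above 0, and Stk4, the MST1 kinase that activates LATS, ranked 80.3, 81.9 and 93.8 in Sham and 69.7, 78.2 and 85.6 in UNx. Taok2, which acts above it, differed by −2.20 points. Of 16 upstream and junction genes 7 were above 0. The promoter of Ajuba, a LIM protein that inhibits LATS at junctions, was lower in every UNx library than in any Sham library without passing, with 75.5, 81.3 and 79.7 in Sham and 61.5, 55.9 and 61.6 in UNx (−19.2 points, SE 5.25, limma adjusted p = 0.0800). Wwc2, a partner of LATS, differed by −6.76 points (limma adjusted p = 0.136). The cofactors Vgll2 and Vgll3 differed by 9.17 and −1.78 points.

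Of 20 classic YAP and TEAD targets 11 were above 0 (47.1% of all promoter regions) and 3 were apart and higher (9.26%). Their median difference was 1.31 points, against −0.190 over the promoter regions of all protein-coding genes. Ccn1 and Ccn2 differed by −2.19 and 1.89 points, and Birc5 was the lowest of the 20, at −14.0. Edn1 and Axl had the smallest p and are given for that. Edn1, which encodes an endothelin peptide, ranked 36.2, 37.7 and 35.4 in Sham and 63.2, 56.0 and 57.0 in UNx, a difference of 22.3 points (SE 8.06, limma adjusted p = 0.153). Axl, a receptor tyrosine kinase, ranked 42.5, 50.1 and 34.9 in Sham and 54.7, 68.4 and 60.6 in UNx (18.7 points, limma adjusted p = 0.212). At both genes every UNx library lay above every Sham library. Amotl1, Vgll1, Ankrd1, Fjx1 and Gadd45b had no promoter region in any list.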

How the data were processed

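ATAC-seq was measured in 3 Sham and 3 UNx libraries, and the authors deposited 1 narrowPeak list per library, so peaks were called per library and were not pooled. Per the submitters' processing notes, cutadapt 3.4, Bowtie, SAMtools, Picard, MACS2 2.2.7.1 and mm10 were used; their roles and settings, and any filter on the lists, are not given in the sources used here. Each deposited row has a display score, a summit position, a −log10 p, a −log10 q and the fold enrichment, a ratio to the background of the caller. These are the authors' values and served only to rank or describe peaks within a list. A higher depth raises −log10 q and the lists hold no read counts, so the depth is unknown and no counting interval is given.

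A peak was 1 distinct interval with its strongest summit. Only the 77355 strongest peaks of each list were used, intervals overlapping by at least 1 bp were merged, and a region took its best percentile rank per list. Starts and gene parts came from GENCODE M21 (basic) on GRCm38, and sequences from the GRCm38 genome of RefSeq. Percentile ranks were compared with limma 3.58.1 in R 4.3.3 (two-sided, with trend and robust variance, Benjamini-Hochberg over all 74781 tested regions, threshold 0.05). Peak numbers, which rest on the presence that chose the regions, are given without a test. A region is called apart where all values of one group exceed all of the other.

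The genes, lists and tests were chosen with earlier results of these data known. Named regions were, for each gene, the strongest promoter region, the strongest distal region and the distal region of smallest p among those nearest to the gene, and over all genes the regions past the threshold or in all 3 lists of one operation only; for the other pathway genes, the 2 of smallest p in each group. Alternatives were all deposited peaks, the 20000 strongest, a −log10 q of at least 5, ranks by fold enrichment, windows around summits, testing every region, normal scores, ranks corrected for GC content, a block for the replicate number, array weights, another variance model, windows of 50 kb or the gene body with 1 kb, and leaving out each library. Percentages above 0 at Tead1 and Vgll4 were added to them after seeing the data. Ranks simulated for UNx against Sham over 74781 regions were used to test the limma fit. It called 0 regions where none was changed. Of 200 changed regions it found 0% at a shift of 1 in units of normal scores, 61% at 2 and 74.5% at 4. There were 3 false calls at 2. With none changed, 3590 simulated regions had an unadjusted limma p under 0.05, against 13896 tested regions in the data. The simulated ranks were independent between regions and lacked the zeros of absent peaks, so the rate of false calls in the data was not tested.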

Additional observations from a re-analysis of the deposited data

How the results depend on the processing

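The main limits are that the lists hold no read counts and that few libraries were made. The called regions numbered 589 in the series and 3 at the 10 genes. They were 22 and 0 with all deposited peaks, 2 and 0 with the 20000 strongest peaks, 3 and 0 with ranks by fold enrichment, 2 and 0 where every region was tested, and 2 and 0 with GC-corrected ranks. Normal scores gave 1583 and 8, array weights 1452 and 8, and windows around summits 1 call at the 10 genes. Leaving out 1 library gave 31 to 382 calls in the series, with fewer samples, and 0 to 1 at the 10 genes. Windows of 50 kb, or the gene body with 1 kb, held 0 called regions, since the 3 lie farther out. The median difference over the 10 genes (1.56) was 3.50 with all deposited peaks, where that of all regions was 2.14, 5.43 in the gene bodies with 1 kb, 0.867 by fold enrichment and 0.571 (without UNx 3) to 2.14 with 1 library left out. Regions in all lists of one operation only (10) numbered 3 among the 20000 strongest peaks, and 12 to 16 with 1 library left out (16 without Sham 2).

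The share of Tead1 distal regions above 0 ran from 81.8% to 91.4% over 18 alternatives, and that of Vgll4 gene body distal regions from 66.7% (ranking by fold enrichment) to 100%, beside 48.4% to 60.4% of all distal regions. With the replicate number as a block there were 56 calls in the series and 0 at the 10 genes, where the 3 Tead1 regions had a limma adjusted p of 0.0803, 0.0638 and 0.0641, and with the block and GC-corrected ranks 0 and 0. The deviations of same-numbered libraries had correlations of 0.00819, −0.100 and −0.0496, and those of the other pairs ran from −0.0778 to 0.105. Whether same-numbered libraries share a batch was not tested. Of the values of named regions under alternatives, 439 kept direction and side of the threshold, 40 were weaker, 5 stronger and 22 reversed. The reversed ones were small. The Yap1 region at 36398 bp was 0.393 with all deposited peaks, 0.379 by fold enrichment, 0.884 with GC-corrected ranks, alone or with the block, 0.873 with array weights and −5.15 to 2.39 with 1 library left out. The internal Tead1 start was 0.333 with all deposited peaks and −2.91 to 1.57 with 1 library left out. The Lats2 promoter was 0.557 with all deposited peaks, 0.00636 with normal scores and −3.60 to 2.39 with 1 library left out. By fold enrichment the Wwtr1 promoter was −3.27, the Amotl2 region at 6491 bp −0.484 and the Vgll4 region at 32668 bp −3.43, the last also −0.299 with GC-corrected ranks, alone or with the block. With 1 library left out the Amotl2 region at 6491 bp ran from −0.366 to 9.34 and the Amotl2 promoter from −4.82 to 0.299. The Yap1 promoter was −30.1 with windows around summits. There the window of UNx 3, whose summit lay 1055 bp from the start, fell outside the region. By fold enrichment the internal Tead1 start was −9.48 and the Amotl2 promoter −9.98. The cause of the other changes was not tested.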
